A study of Mus musculus with 6 samples.

Results

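Proximal T-cell receptor and calcium signalling was examined as a set of 46 genes named by symbol, of which 45 were found among the 11162 entries of the expression table. Gab2, the 1 remaining symbol, was not analysed here. All 45 had a mean level of at least 1 RPKM (reads on a gene scaled to its length and to the size of the library) and were tested among the 9351 genes above that level. The cells were naive CD8 T cells from mouse spleen, and all samples carried Nur77-GFP (Tg(Nr4a1-EGFP)GY139Gsat), a transgene that makes green fluorescent protein from Nr4a1 regulatory sequence. OT-I, a transgenic T-cell receptor, was part of the sort description of all samples, as were CD8+, CD44lo, CD62Lhi and Qa2hi. The labels separate them by reporter brightness only, into GFP-hi (bright) and GFP-lo (dim) cells, with 3 libraries of each; values per library are given below in the order of replicates 1, 2 and 3, numbers that only follow the order of the records. Age and sex of the mice, and whether each library came from its own animal, were not given, so p-values measure the spread between these libraries, which may be technical.

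Engagement of the T-cell receptor is read out inside the cell by a short chain of proteins. The kinase Lck phosphorylates the receptor and the kinase Zap70, Zap70 phosphorylates the scaffolds Lat and SLP-76 (encoded by Lcp2), and these gather phospholipase C-gamma 1, the Vav exchange factors and small adaptors. The phospholipase then makes a messenger that releases calcium from the endoplasmic reticulum through inositol trisphosphate receptors, upon which Stim proteins open Orai channels in the plasma membrane and calcineurin sends NFAT to the nucleus, and another messenger that feeds the PKC-theta and MAP kinase branches. Much of this chain is controlled by phosphorylation, which RNA levels do not record. Nur77 (Nr4a1) is transcribed downstream of it, so the question was whether cells that differ in the reporter also differ in transcripts of the machinery upstream.

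The labels were first set against the reporter. The GFP entry of the table measured 214, 262 and 215 RPKM in the libraries labelled GFP-hi and 216, 215 and 191 RPKM in those labelled GFP-lo, which overlapped (log2 fold change 0.15, adjusted p = 0.42 by limma). Nr4a1 ranged from 37.0 to 90.9 RPKM in the former and from 33.8 to 84.9 RPKM in the latter (adjusted p = 0.98). Neither transcript separated the populations, which were sorted on protein fluorescence, so the directions below rest on the labels, and GFP-hi and GFP-lo mean the libraries so labelled. Depths recovered from the step that 1 read makes in low RPKM values ran from 26170000 to 35940000 reads. The 5 CD8 T cell markers summed to 1428 to 1531 RPKM in GFP-hi and to 1398 to 1454 RPKM in GFP-lo libraries. Of 6 B cell markers, the 3 listed (Cd79b, Ms4a1 and Cd74) summed to 14.4 to 16.8 RPKM in GFP-hi and to 13.1 to 13.4 RPKM in GFP-lo libraries. Of 4 CD4 T cell markers only Cd40lg was listed, and it was lower in GFP-hi libraries, at 14.2 to 22.7 RPKM against 35.4 to 46.9 RPKM; Cd4 itself was not analysed here. Of 6 myeloid markers Itgam alone was listed, at no more than 0.431 RPKM, and of 4 NK cell markers 0 were listed. The heat-shock genes Hspa1a and Hspa1b summed to 3004 and 3367 RPKM in GFP-hi replicate 2 and GFP-lo replicate 2, against 496 to 738 RPKM in the other 4 libraries. The part of Cd40lg and of the B cell markers in the results was not tested, and in bulk samples fewer cells of a type and less RNA per cell cannot be told apart. Each population held 1 library high in heat-shock transcripts.

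Between the populations, most members of the machinery differed by less than the test could call. Intervals bounded most differences in RPKM + 1 to within 1.25-fold. Of 45 members, 1 was higher in GFP-hi cells and 0 were lower (limma, adjusted p under 0.05), which is 2.22% of the members, against 3.95% of all genes tested. The higher member was Vav3, an exchange factor that acts on the actin cytoskeleton. At an unadjusted p under 0.05 there were 8 members, against 20.2% of all genes tested. The 3 GFP-hi libraries lay wholly above or wholly below the 3 GFP-lo libraries for 11 members (24.4%), against 26.9% of all genes tested. For 3 of them, Vav3, Fyn and Grap, GFP-hi lay above (17.1% of all genes tested), and for 8 GFP-lo lay above (9.84%). The log2 fold changes of the members, GFP-hi over GFP-lo on the scale of RPKM + 1, ran from -0.46 to 0.34 with a median of -0.0045, beside a median of 0.02 over all genes tested. This scale understates changes of genes with low RPKM. Since most members missed the threshold, the width of their intervals bounds the differences that could have been missed. The 95% interval of the log2 fold change had a median reach of 0.16 to either side, lay within a 1.25-fold change in both directions for 33 members (73.3%, against 67.2% of all genes tested) and within a 1.5-fold change for 42 members (93.3%, against 94.1%). The exceptions at 1.5-fold were Sit1, Gab3 and Lat. Both bounds are on RPKM + 1 and do not bound the fold change in RPKM itself for genes with low RPKM. Vav3, counted within 1.5-fold, had a log2 fold change of 0.44 with 0.1 RPKM added in place of 1.

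**Figure D1:**
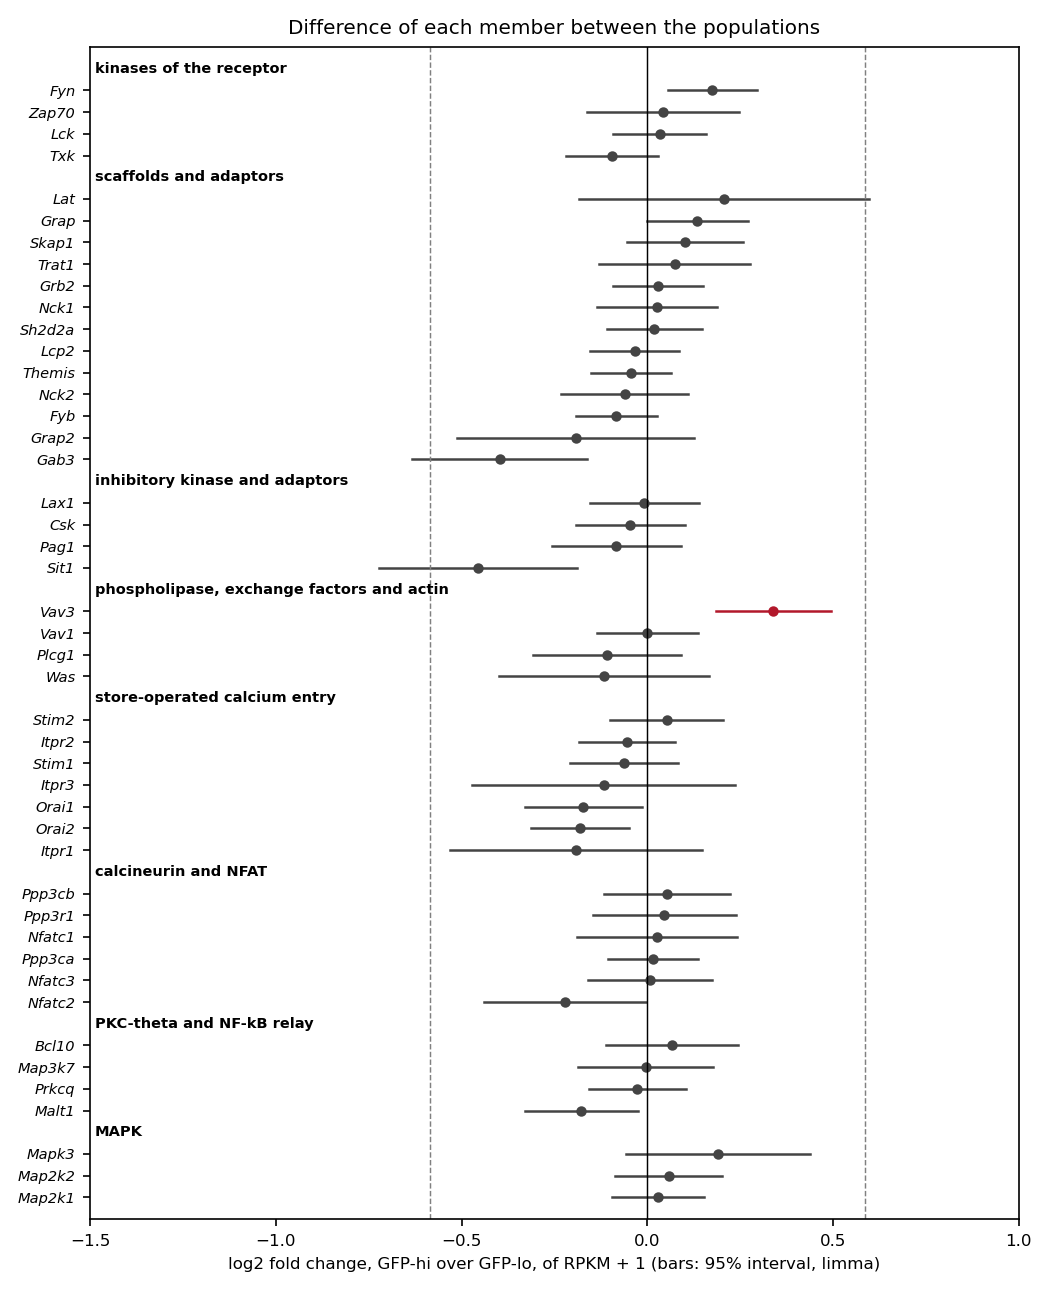
Log2 fold change of each of the 45 members (GFP-hi over GFP-lo, RPKM + 1; horizontal axis) with its 95% interval from limma, grouped by role; dashed lines mark a 1.5-fold change in either direction. Vav3, in red, is the only member with an adjusted p under 0.05, and the intervals of Sit1, Gab3 and Lat cross a dashed line.

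Sequences upstream of 3 members are shown because Vav3 was the member that rose, Vav1 is its abundant relative that did not pass the test, and Sit1 had the largest negative fold change. They are the bases before a RefSeq transcript start (GRCm38.p6; 35 of 45 members had such an entry), cut where annotated exons of GENCODE M21 begin. Capitals mark matches, on either strand, to GCGNGGGCG (an Egr site), GGAAAA (the core of an NFAT site), TGANTCA (an AP-1 site) and AAAGGTCA (the site of the Nr4a family). In the stretches shown no match overlapped another. The stretches before a distal and an internal start of Vav3 are chr3:109340433-109340652 and chr3:109573757-109573906, both on the plus strand, and the Vav1 stretch is chr17:57278850-57279099 on the plus strand. The Sit1 stretch is chr4:43483735-43483959 on the minus strand.
Vav3, distal start: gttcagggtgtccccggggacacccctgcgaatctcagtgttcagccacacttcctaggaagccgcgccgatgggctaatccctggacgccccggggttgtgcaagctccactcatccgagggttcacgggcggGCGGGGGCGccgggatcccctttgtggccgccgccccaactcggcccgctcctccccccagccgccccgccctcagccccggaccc
Vav3, internal start: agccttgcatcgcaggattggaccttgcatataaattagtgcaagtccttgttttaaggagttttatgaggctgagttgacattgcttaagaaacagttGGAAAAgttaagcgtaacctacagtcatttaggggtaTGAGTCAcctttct
Vav1: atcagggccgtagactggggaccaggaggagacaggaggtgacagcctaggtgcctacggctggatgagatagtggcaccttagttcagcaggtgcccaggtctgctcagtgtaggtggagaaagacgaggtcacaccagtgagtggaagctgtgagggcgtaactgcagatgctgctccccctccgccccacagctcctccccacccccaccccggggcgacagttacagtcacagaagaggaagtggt
Sit1: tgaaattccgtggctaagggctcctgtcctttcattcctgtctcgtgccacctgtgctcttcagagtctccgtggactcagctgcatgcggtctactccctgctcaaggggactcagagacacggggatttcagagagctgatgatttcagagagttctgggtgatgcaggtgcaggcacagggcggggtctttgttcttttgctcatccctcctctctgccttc

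Over the full 250 bases before each start, 7 of 48 member windows (14.6%) held the Egr site, among them 2 overlapping windows of Vav3 that share 1 match, against 4.70% of 32851 windows of all genes. The NFAT core was in 8 member windows (16.7%, against 20.4% of all windows), and the AP-1 site was in 1, the internal Vav3 start (2.08%, against 6.75%). The Nr4a site was in 1 window, of Zap70 (2.08%, against 1.34%). These matches describe letters in a window and not bound sites. The windows of all genes were not matched to those of the members for expression or base composition. The part of base composition in these shares was not tested.

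The Vav exchange factors, phospholipase C-gamma 1 and the actin regulator Was link the scaffolds to the cytoskeleton and to calcium. Vav3 (Entrez 57257, chr3:109340653-109685698 on the plus strand of GRCm38, GENCODE M21) stood at 3.58, 3.19 and 3.495 RPKM in the GFP-hi samples and at 2.59, 2.39 and 2.50 RPKM in the GFP-lo samples. All 3 GFP-hi libraries were thus above all GFP-lo libraries. Bright cells averaged 3.42 ± 0.208 RPKM and dim cells 2.49 ± 0.0977 RPKM (SD, n = 3 in each), a ratio of 1.37, with a log2 fold change of 0.34 and a standard error of 0.067 (adjusted p = 0.032 by limma). At these levels 65 to 108 reads lay on each kilobase of transcript, and Vav3 was the least abundant of the 45 members. The call was lost in the 4 libraries without both replicates 2 (adjusted p = 0.11) and on leaving out any 1 of GFP-hi replicates 1 and 3 and of GFP-lo replicates 1, 2 and 3, with adjusted p values up to 0.13 and log2 fold changes from 0.31 to 0.36, and it held without GFP-hi replicate 2. No base of its exons was shared with another annotated gene.

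Vav1, the main Vav protein of T cells, measured 85.1, 81.0 and 83.3 RPKM in the bright population against 88.9, 79.5 and 81.3 RPKM in the dim one. The groups overlapped, and its log2 fold change of -0.00056 had an interval from -0.14 to 0.14. Plcg1, which encodes phospholipase C-gamma 1, came to 44.4, 37.3 and 45.7 RPKM in bright and 49.0, 42.95 and 45.2 RPKM in dim samples, with an interval of the log2 fold change from -0.31 to 0.09. Was, which encodes the Wiskott-Aldrich syndrome protein, reached 24.95, 17.8 and 25.4 RPKM across the GFP-hi samples, beside 24.2, 24.6 and 24.4 RPKM across the GFP-lo samples. Its low value was that of GFP-hi replicate 2, and its log2 fold change went from -0.12 to 0.04 without that library, to -0.19 without GFP-hi replicate 1 and to -0.20 without GFP-hi replicate 3.

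**Figure D2:**
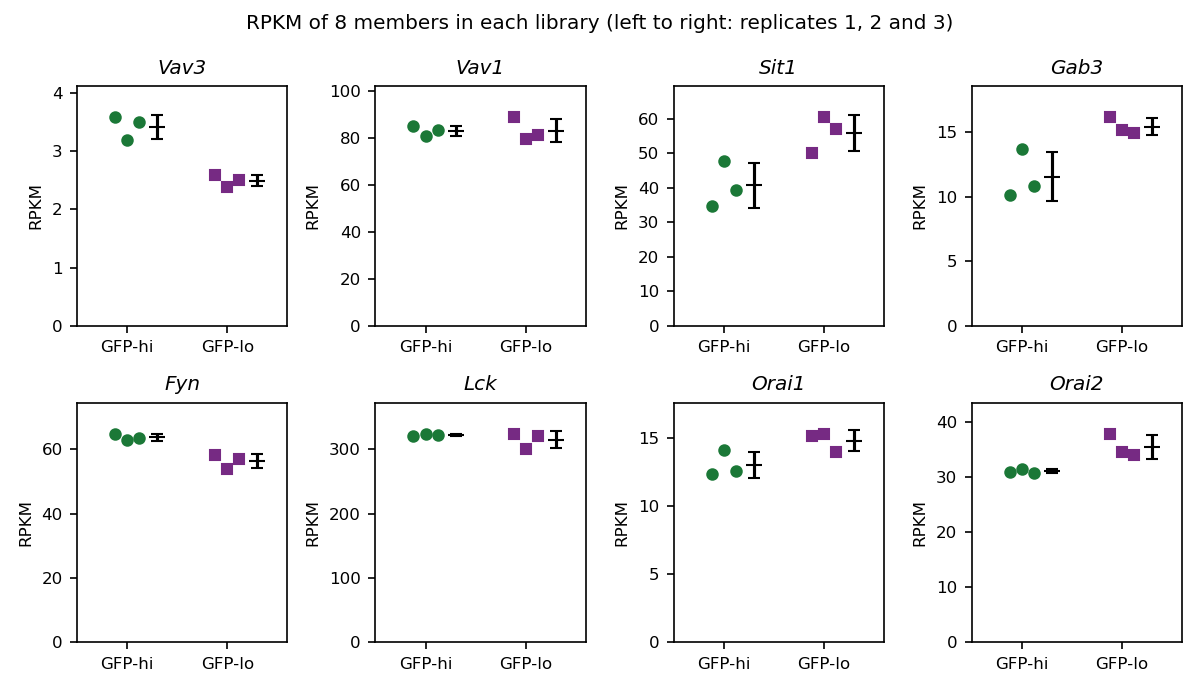
RPKM (vertical axes, each from 0) of 8 members in the 3 GFP-hi (green circles) and 3 GFP-lo (purple squares) libraries, with the mean and SD (n = 3) beside each group. Vav3, Fyn, Sit1, Gab3 and Orai2 show groups that do not overlap; Vav1, Lck and Orai1 overlap.

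Among the receptor-proximal kinases 0 of 4 passed the test. Lck, which starts the cascade, was the most abundant member of the whole set, at 321, 324 and 323 RPKM in bright and 324, 301 and 321 RPKM in dim samples. Its log2 fold change was 0.03, with an interval from -0.09 to 0.16. Zap70, the kinase recruited to the phosphorylated receptor, had its highest value, 60.0 RPKM, in GFP-hi replicate 2 and its lowest, 48.9 RPKM, in GFP-lo replicate 3. It averaged 54.1 ± 5.17 RPKM in bright and 52.5 ± 5.06 RPKM in dim samples (SD, n = 3 in each), a log2 fold change of 0.04. Fyn, the second Src-family kinase of T cells, stood at 64.8, 62.8 and 63.5 RPKM in the GFP-hi samples and at 58.2, 53.8 and 56.9 RPKM in the GFP-lo samples. Its groups did not overlap, but the log2 fold change of 0.17 (standard error 0.052) did not pass (limma, adjusted p = 0.12). Txk, a Tec-family kinase, measured 29.6, 31.1 and 28.6 RPKM in the bright population against 31.3, 32.8 and 31.4 RPKM in the dim one, a log2 fold change of -0.10 (adjusted p = 0.38 by limma).

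The scaffolds and adaptors are the proteins on which the complex is assembled, and 0 of 13 passed. Their log2 fold changes ran from -0.40 to 0.21 with a median of 0.02. Grap, an adaptor of the Grb2 family, was the most abundant, at 135, 148 and 138 RPKM in bright and 133, 122 and 128 RPKM in dim samples, a log2 fold change of 0.13 (adjusted p = 0.25 by limma) that was 0.07 in the 4 libraries without both replicates 2. Its relative Grap2, which encodes the Gads adaptor that joins Lat to SLP-76, averaged 21.5 ± 3.54 RPKM in bright and 24.7 ± 4.25 RPKM in dim samples (SD, n = 3 in each). Lat, the central membrane scaffold, reached 66.5, 58.7 and 70.5 RPKM across the GFP-hi samples, beside 41.7, 61.0 and 69.7 RPKM across the GFP-lo samples. GFP-lo replicate 1 stood lowest, and the log2 fold change of 0.21 became -0.0042 without it and 0.36 without GFP-lo replicate 3. The scaffold Lcp2 differed by a log2 fold change of -0.03 with an interval from -0.15 to 0.09, and the adaptor Grb2 by 0.03 with an interval from -0.09 to 0.15.

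Gab3, a docking protein of the Gab family (chrX:74966843-75085458 on the minus strand of GRCm38), had the largest absolute fold change of these 13 members. It stood at 10.1, 13.7 and 10.8 RPKM in the GFP-hi samples and at 16.1, 15.2 and 14.9 RPKM in the GFP-lo samples, so that all GFP-hi libraries were below all GFP-lo libraries. Bright cells averaged 11.5 ± 1.91 RPKM and dim cells 15.4 ± 0.641 RPKM (SD, n = 3 in each), with a log2 fold change of -0.40 and a standard error of 0.10 (adjusted p = 0.075 by limma). It passed without GFP-hi replicate 2 (log2 fold change -0.52, limma adjusted p = 0.0075), the GFP-hi library nearest to the GFP-lo range, and also in the 4 libraries without both replicates 2, with array quality weights and with the trend with transcript length removed. Among the remaining adaptors, Themis, a regulator of receptor signal strength in thymocytes, and Fyb, which couples the receptor to integrins, also had groups that did not overlap, at log2 fold changes of -0.04 and -0.08. Skap1, a partner of the Fyb protein, averaged 51.6 ± 3.83 RPKM in bright and 48.0 ± 2.21 RPKM in dim samples (SD, n = 3 in each). Trat1 (the receptor-interacting adaptor TRIM), the Nck adaptors Nck1 and Nck2, which reach the actin cytoskeleton, and Sh2d2a, which binds Lck, had overlapping groups and log2 fold changes from -0.06 to 0.07.

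Of the members that restrain the cascade 0 of 4 passed. All 4 had negative fold changes, as did 4164 of the 9351 genes tested, and Lax1, at -0.0078, changed sign in 4 alternatives. Among 8 other genes listed with this branch 4 were positive and 4 negative, and 0 passed. That list was not confined to genes that restrain, as it held Ptprc, which encodes CD45. The split is therefore not a count of restraining genes. Sit1 (chr4:43482081-43483734 on the minus strand of GRCm38) encodes a transmembrane adaptor that binds the phosphatase SHP2 and dampens receptor signals. It measured 34.8, 47.7 and 39.4 RPKM in the bright population against 50.2, 60.4 and 56.9 RPKM in the dim one. The groups did not overlap, and GFP-hi replicate 2 and GFP-lo replicate 1 lay nearest to each other. Bright cells averaged 40.6 ± 6.51 RPKM and dim cells 55.8 ± 5.18 RPKM (SD, n = 3 in each), a log2 fold change of -0.46 with a standard error of 0.12 (adjusted p = 0.073 by limma). Without GFP-hi replicate 2 it was -0.57 (limma, adjusted p = 0.021), and it also passed with array quality weights and with the length trend removed. Csk, the kinase that phosphorylates the inhibitory tyrosine of Lck, differed by -0.05 with an interval from -0.19 to 0.10. Pag1, the membrane anchor of Csk, reached 9.33, 8.02 and 7.76 RPKM across the GFP-hi samples, beside 8.62, 8.75 and 9.33 RPKM across the GFP-lo samples, a log2 fold change of -0.08. Lax1, an inhibitory membrane adaptor, stood at 57.9, 62.6 and 60.2 RPKM in the GFP-hi samples and at 64.1, 61.5 and 56.3 RPKM in the GFP-lo samples, a log2 fold change of -0.01.

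**Figure D3:**
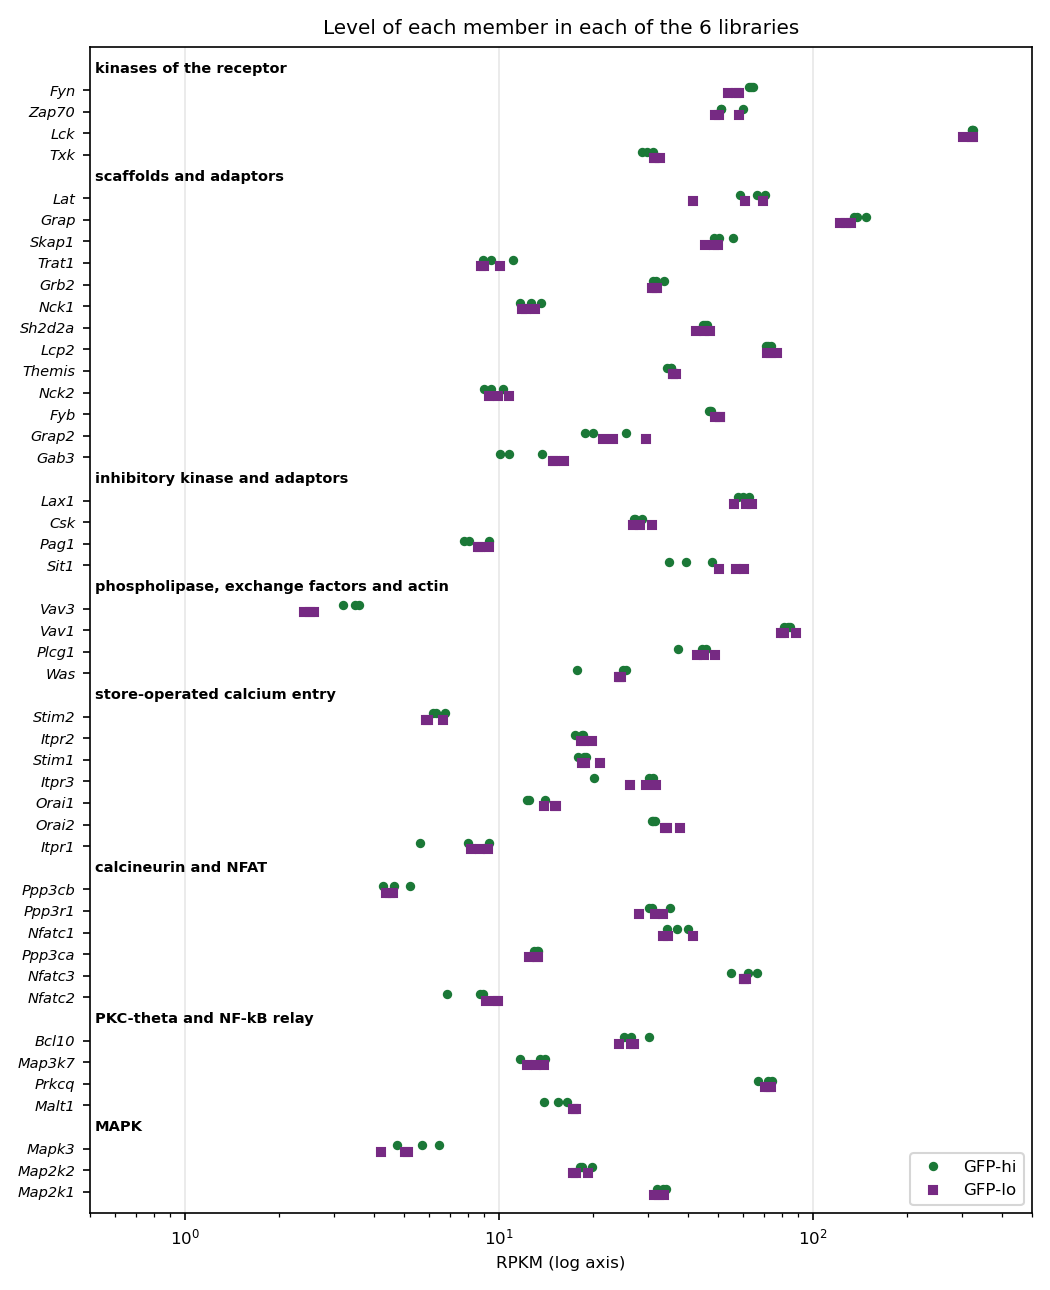
RPKM (horizontal log axis) of each member in each of the 3 GFP-hi (circles) and 3 GFP-lo (squares) libraries, grouped by role. Members span from Vav3, near 3 RPKM, to Lck, above 300 RPKM. The libraries of 1 gene lie closer together than this span, with wider ranges for some, such as Lat (41.7 to 70.5 RPKM) and Itpr1 (5.61 to 9.34 RPKM).

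Store-operated calcium entry was represented by 7 genes, of which 0 passed. Negative fold changes were seen for 6 of them, against 4164 of all 9351 genes tested. Among 9 other genes listed with this branch 5 were positive and 4 negative. That list also held calcium pumps and other genes outside store-operated entry, so the 2 counts are not of like genes. Orai2, a pore subunit of the calcium channel, measured 31.0, 31.5 and 30.8 RPKM in the bright population against 37.9, 34.5 and 34.0 RPKM in the dim one. Its groups did not overlap, and the log2 fold change was -0.18 (standard error 0.057, limma, adjusted p = 0.13). Orai1, the pore subunit best known from inherited immune deficiency, reached 12.4, 14.1 and 12.5 RPKM across the GFP-hi samples, beside 15.1, 15.3 and 13.9 RPKM across the GFP-lo samples, which overlapped. Its log2 fold change of -0.17 (limma, adjusted p = 0.21) passed with array quality weights and with the length trend removed. The calcium sensors of the endoplasmic reticulum were closer, Stim1 at -0.06 with an interval from -0.21 to 0.08 and Stim2 at 0.05 with an interval from -0.10 to 0.21. Of the inositol trisphosphate receptors, Itpr1 stood at 9.34, 5.61 and 7.98 RPKM in the GFP-hi samples and at 8.17, 8.70 and 9.27 RPKM in the GFP-lo samples. These values overlapped. Itpr3 was the most abundant of the 3 receptors, with 31.1, 20.1 and 30.2 RPKM in GFP-hi and 31.6, 26.3 and 29.4 RPKM in GFP-lo libraries. Itpr2 averaged 18.2 ± 0.609 RPKM in bright and 18.9 ± 0.795 RPKM in dim samples (SD, n = 3 in each). For all 3, GFP-hi replicate 2 was the lowest of the 6 libraries. The longest transcripts of Itpr1, Itpr2 and Itpr3, of 9870, 11679 and 8990 bases, exceeded those of all other members. Deviations in that library fell with transcript length (given below). The part of length in these values was not tested beyond the fit with the length trend removed. Without that library, the log2 fold change of Itpr1 was -0.01 in place of -0.19, and without GFP-hi replicate 1 it was -0.33.

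Calcineurin and NFAT carry the calcium signal to the nucleus, and 0 of 6 passed. The calcineurin subunits Ppp3ca, Ppp3cb and Ppp3r1 had log2 fold changes of 0.02, 0.05 and 0.05. Ppp3cb measured 4.29, 5.22 and 4.63 RPKM in the bright population against 4.61, 4.49 and 4.39 RPKM in the dim one. Nfatc3, the most abundant NFAT gene, reached 66.4, 54.9 and 62.5 RPKM across the GFP-hi samples, beside 60.3, 60.6 and 61.3 RPKM across the GFP-lo samples, a log2 fold change of 0.01. Nfatc2, also known as NFAT1, stood at 8.90, 6.84 and 8.75 RPKM in the GFP-hi samples and at 9.78, 9.15 and 9.96 RPKM in the GFP-lo samples. Its groups did not overlap, and its log2 fold change was -0.22 (limma, adjusted p = 0.24), or -0.11 without GFP-hi replicate 2. Nfatc1, which is itself induced by strong stimulation, averaged 37.2 ± 2.93 RPKM in bright and 36.6 ± 4.45 RPKM in dim samples (SD, n = 3 in each).

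In the PKC-theta branch, which activates NF-kB through a complex that holds Bcl10 and Malt1, 0 of 4 passed. Prkcq, which encodes PKC-theta, measured 72.2, 74.1 and 66.8 RPKM in the bright population against 73.6, 72.8 and 70.6 RPKM in the dim one, a log2 fold change of -0.03. Malt1, the protease of the complex, reached 16.5, 14.0 and 15.5 RPKM across the GFP-hi samples, beside 17.6, 17.4 and 17.3 RPKM across the GFP-lo samples, whose groups did not overlap. Its log2 fold change was -0.18 (limma, adjusted p = 0.19), or -0.12 without GFP-hi replicate 2. Bcl10, the partner of Malt1, stood at 26.4, 30.1 and 25.1 RPKM in the GFP-hi samples and at 27.0, 26.4 and 24.2 RPKM in the GFP-lo samples, a log2 fold change of 0.07. Map3k7, which encodes the kinase TAK1, differed by -0.0045.

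In the MAP kinase branch 0 of 3 passed. Mapk3, which encodes ERK1, measured 5.71, 4.75 and 6.46 RPKM in the bright population against 5.03, 5.15 and 4.22 RPKM in the dim one. The groups overlapped, and the log2 fold change was 0.19 with an interval from -0.06 to 0.44 (limma, adjusted p = 0.38). It dropped to 0.10 if GFP-hi replicate 3 was left out and to 0.12 if GFP-lo replicate 3 was, and it came to 0.29 if GFP-hi replicate 2 was. The MEK genes Map2k1 and Map2k2 differed by 0.03 and 0.06. Map2k1 reached 33.5, 34.0 and 31.9 RPKM across the GFP-hi samples, beside 33.6, 31.3 and 32.4 RPKM across the GFP-lo samples, and Map2k2 had 18.2, 19.8 and 18.5 RPKM against 19.3, 17.7 and 17.2 RPKM.

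RPKM is scaled per length, so levels of related genes can be set side by side within a library, and their ratio is free of the scaling of the library except through the added 1 RPKM. It is not free of the relation with transcript length, which differed between libraries (given below), where the genes of a pair differ in length. In all 6 libraries Lck exceeded Fyn, Vav1 exceeded Vav3, Stim1 exceeded Stim2 and Nfatc3 exceeded Nfatc1 and Nfatc2, and Orai2 exceeded Orai1. Of 12 such pairs compared, 4 had log2 ratios that did not overlap between the populations. In each the ratio as written was lower in GFP-hi cells, a direction set by which gene was put first. The share among pairs of all genes was not computed. The pairs of Vav1 with Vav3, of Lck with Fyn and of Nfatc2 with Nfatc3 carry the differences of Vav3, Fyn and Nfatc2 given above. The log2 ratio of Vav1 to Vav3 was 4.25 ± 0.0355 in GFP-hi and 4.59 ± 0.0498 in GFP-lo cells (SD, n = 3 in each), and that of Lck to Fyn was 2.32 ± 0.0288 and 2.46 ± 0.00905. With 0.1 RPKM added in place of 1, the difference in the ratio of Vav1 to Vav3 was -0.44 rather than -0.34. The log2 ratio of Nfatc2 to Nfatc3 was -2.77 ± 0.0651 and -2.54 ± 0.0550, and that of Stim1 to Stim2 was 1.40 ± 0.0498 and 1.51 ± 0.0106. Each of these 4 differences had an exact two-sided permutation p of 0.1, the smallest that 3 against 3 libraries allow, and an adjusted p of 0.3 over the 12 pairs. The ratio of Orai1 to Orai2 differed by 0.0084 and that of Lck to its inhibitory kinase Csk by 0.08, with overlapping groups.

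**Figure D4:**
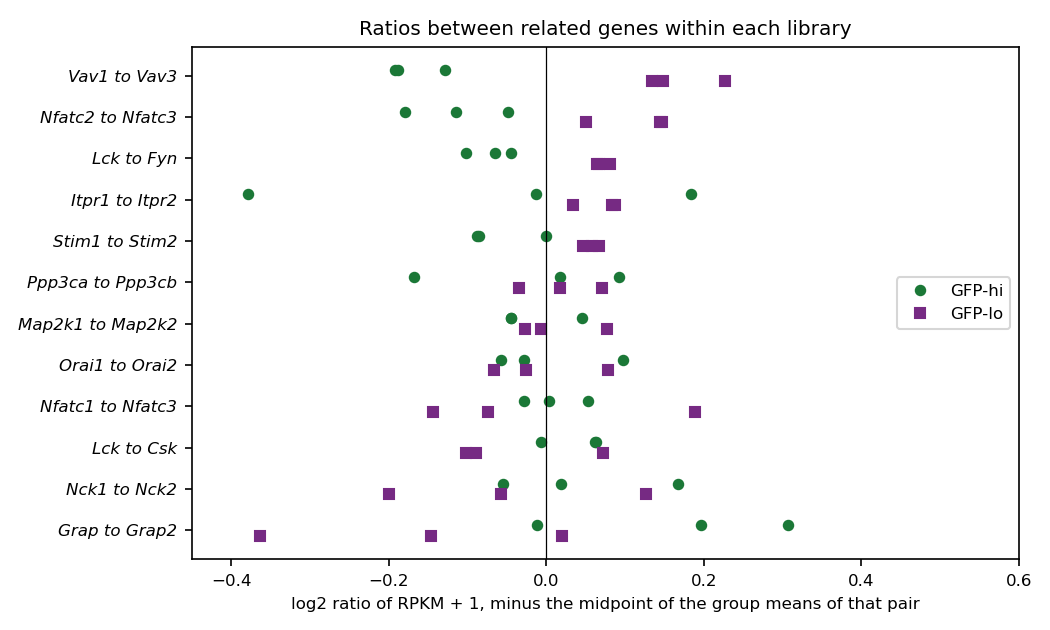
Log2 ratio of RPKM + 1 between 12 pairs of members (horizontal axis, shifted so that the midpoint of the group means of each pair is at 0) in the 3 GFP-hi (circles) and 3 GFP-lo (squares) libraries. The groups of Vav1 to Vav3, Nfatc2 to Nfatc3, Lck to Fyn and Stim1 to Stim2 lie apart, and those of the remaining 8 pairs overlap.

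Other genes of the same branches were taken from a list of 92 symbols, of which 83 were tested. Of these, 3 were higher and 1 was lower in GFP-hi cells (limma, adjusted p under 0.05), or 4.82%, against 3.95% of all genes tested, and the median log2 fold change was 0.02. Tec, a Tec-family kinase related to the member Txk, fell. It stood at 7.60, 7.86 and 7.37 RPKM in the GFP-hi samples and at 10.2, 10.3 and 10.6 RPKM in the GFP-lo samples, a log2 fold change of -0.40 with a standard error of 0.053 (adjusted p = 0.0073 by limma). Tec held its call without any 1 library, with adjusted p values up to 0.042, and had 0.051 in the 4 libraries without both replicates 2. Orai3, the third Orai channel subunit, was higher, at 11.9, 12.5 and 11.9 RPKM in bright and 9.73, 9.70 and 9.14 RPKM in dim samples, a log2 fold change of 0.32 (adjusted p = 0.02 by limma).

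Camk4, a calcium- and calmodulin-dependent kinase, was also higher, averaging 22.2 ± 1.46 RPKM in bright and 17.2 ± 0.800 RPKM in dim samples (SD, n = 3 in each), at a log2 fold change of 0.35 (adjusted p = 0.027 by limma). Sh2d1a, which encodes the adaptor SAP, averaged 9.88 ± 0.691 RPKM in bright and 7.67 ± 0.523 RPKM in dim samples (SD, n = 3 in each), at a log2 fold change of 0.33 (adjusted p = 0.048 by limma). The exons of Sh2d1a share 1465 bases with Tenm1 on the opposite strand, and reads of the pair could not be told apart if strand was not recorded. Without 1 library these calls were lost in 4 of 6 fits for Orai3 (adjusted p up to 0.091), 5 of 6 for Camk4 (up to 0.11) and 6 of 6 for Sh2d1a (up to 0.17). In the 4 libraries without both replicates 2 all 3 were lost, with adjusted p values of 0.10 for Orai3, 0.096 for Camk4 and 0.21 for Sh2d1a. Sh2d1a passed in 4 of 18 alternatives, with adjusted p values from 0.0097 to 0.21 over all of them, and also missed the threshold under both other filters, the 3 other scalings, without the variance trend and with the length trend removed. In the branches without a call, the largest fold changes were those of Vav2 (0.39, limma adjusted p = 0.056), Rasgrp1, the Ras activator of T cells (0.23, adjusted p = 0.09), Prkcb (0.19, adjusted p = 0.072) and Ptprc, which encodes CD45 (0.16, adjusted p = 0.22). Vav2 lay close to the filter, averaging 1.78 RPKM in bright and 1.115 RPKM in dim samples. Its log2 fold change was 0.63 with 0.1 RPKM added, and its limma adjusted p ran from 0.0064 to 0.18 over 17 alternatives.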

How the data were processed

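RNA had been measured in 6 libraries of sorted cells, 3 GFP-hi and 3 GFP-lo, made with the SMART-seq v4 and Nextera XT kits per the labels' protocols. The authors deposited RPKM values, per the file headers. The submitters' processing notes name STAR and mm10; the counter and annotation are not given in the sources used here. Each column carries a sample title, and the reporter label gave its group.

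Genes with a mean of at least 1 RPKM were tested with limma 3.58.1 (R 4.3.3) on log2(RPKM + 1), with moderation that follows a mean-variance trend and without covariates; p-values were two-sided and adjusted by Benjamini-Hochberg over the 9351 genes. The fit was tested on simulated data with noise drawn independently for each gene and library. Such data lack the relation with transcript length and any variation shared by libraries, so they give no check of the fit under these. Depth was the library size at which RPKM times length of single-transcript genes (GENCODE M21) came closest to whole reads: 89.9% to 94.2% of low values fell no more than 0.1 from a whole number of reads (20% by chance). Counting error is a lower limit, since reads include PCR copies. Ratios of member pairs were compared by exact permutation (scipy 1.17.1); the pair with Gab2 was left out.

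Values are given per library for members with an adjusted p under 0.05 and, in each branch, for the 2 with the largest absolute fold change and the most abundant; other members named were chosen with their values seen. The members and lists were chosen with earlier results of these data known. Alternatives changed the pseudocount (0.1, 0.5), filter (none, or at least 5 RPKM), scaling (median, quantile, trimmed mean of M values), variance model, transcript length trend and libraries. The fit to 4 libraries was chosen after the data had been seen.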

Additional observations from a re-analysis of the deposited data

How the results depend on the processing

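Vav3 kept a positive log2 fold change in all 17 alternatives in which it was tested, from 0.31 to 0.44, with adjusted p values from 0.0029 to 0.13. The number of members called, 1 as reported, was 0 with a filter at 5 RPKM, which leaves out Vav3, 8 with array quality weights (Fyn, Gab3, Mapk3, Orai1, Orai2, Sit1, Txk and Vav3) and 4 with the length trend removed (Gab3, Orai1, Sit1 and Vav3). It ranged from 0 to 3 when 1 library was left out, 3 being Gab3, Sit1 and Vav3 without GFP-hi replicate 2 and 0 the number without each of the other 5. The 1 member called in the 4 libraries without both replicates 2 was Gab3. Over all genes 369 were called as reported, 202 with the filter at 5 RPKM, 1282 with array quality weights, 101 in the 4 libraries and 133 to 315 without 1 library. Of the other pathway genes 4 were called as reported, 15 with array quality weights, 7 with the length trend removed, 0 in the 4 libraries and 1 to 5 without 1 library. Fits without a library rest on fewer samples, and for the remaining settings the cause was not tested. The log2 fold changes below changed sign; that of Lat as reported was 0.21 and that of Was -0.12, and the others lay within 0.07 of 0. With the length trend removed Lck was -0.0107 and Map2k1 -0.00786. Nfatc3 was -0.0124 with quantile normalization and -0.0203 with trimmed mean of M values. With array quality weights Lax1 was 0.00563, Vav1 0.0362 and Was 0.0221. In the 4 libraries Lck was -0.0028, Map2k1 -0.0151, Ppp3cb -0.0107 and Was 0.0488. Leaving out 1 library gave ranges across 0 of -0.00581 to 0.119 for Bcl10, -0.00417 to 0.36 for Lat, -0.0597 to 0.0332 for Lax1, -3.3e-05 to 0.0543 for Lck, -0.0525 to 0.0831 for Nfatc3, -0.00994 to 0.107 for Ppp3cb, -0.0578 to 0.0156 for Prkcq, -0.0322 to 0.0472 for Vav1 and -0.204 to 0.0433 for Was. The number of pairs with separate ratios was 4 with both other pseudocounts. It was 4 to 6 without 1 library, where it could not fall below 4. Groups that lie apart stay apart when a library is left out, so this range is no check of the 4 pairs. No paired analysis was run, because the labels give no replicate numbers and do not say which libraries belong together. The numbers used here only follow the order of the records. Heat-shock transcripts were high in both replicates 2. Any variation shared by libraries of the same number stayed in the error of these fits.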

Other observations

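Orai channel subunits can assemble with one another, and the make-up of the Orai transcripts differed between the populations although their sum overlapped. This was seen after the values were known and is given without a test. Orai3 made up 21.5%, 21.5% and 21.6% of the summed RPKM of Orai1, Orai2 and Orai3 in the 3 GFP-hi libraries and 15.5%, 16.3% and 16.0% in the 3 GFP-lo libraries. Orai2 made up 54.2% to 56.1% in GFP-hi and 58.0% to 60.4% in GFP-lo libraries. The sum was 55.3 to 58.1 RPKM in GFP-hi and 57.0 to 62.8 RPKM in GFP-lo libraries.

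Fold changes of the 45 members were lower for members with a longer transcript (Spearman rho = -0.295, across genes, which are not independent replicates), as they were over 9107 genes tested with a known length (rho = -0.283). In GFP-hi replicate 2 the deviation of a gene from its mean over the 6 libraries had a rho with length of -0.44 over the members and of -0.517 over the genes tested. That library was the lowest of the 6 for 10 members (22.2%, against 20.2% of all genes tested) and the highest for 12 (26.7%, against 33.3%). GFP-hi replicate 3 was likewise the lowest for 10 members (22.2%, against 10.7%). The part of transcript length in the results was not tested beyond the fit with the length trend removed.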
